A study of Nicotiana tabacum with 54 samples.

Results

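The 200 steadiest genes of tobacco (Nicotiana tabacum) are described here, that is, the genes whose transcript level varied least over leaf, stalk and root of 6 tobacco materials. They were chosen by their measured values. The 3 tissue tables were joined by gene id, which gave 69500 genes in 54 libraries, and the 8606 genes with a mean of at least 20 FPKM (fragments mapped to a gene, scaled by its length and by the size of the library) were kept. After the 23 glutathione S-transferase (NtGST) genes among them had been set aside, 8583 genes remained, and the 200 with the lowest coefficient of variation (CV, the SD divided by the mean of the FPKM values) were taken. Levels and differences over these 54 libraries therefore only describe the genes, and statements on whether steadiness carries over rest on libraries that took no part in the choice.

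The libraries were made from total RNA of leaf, stalk and root of plants whose flower heads had been cut off (topping). The materials are labelled GDH88, VxG88, Va116, Basma, HxB and Hongda, and every group was topped. The x of HxB and VxG88 is a multiplication sign in the sample titles, the form used for a cross. Their letters match Hongda and Basma, and Va116 and GDH88, but no label states the parents. The study's methods give 3 plants per replicate, sampled for root, stalk and leaf, so the tissues of a replicate may share plants. They give the sampling time both as a day after transplanting and as a week after topping. There were 3 libraries for each material and tissue, 18 per tissue and 9 per material, and a library is named here by its tissue, its material and the number of its column. Each tissue is a mixture of cell types, and in such bulk samples fewer cells of a type and less RNA per cell cannot be told apart.

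Genes of steady level are used as reference genes, the internal standard against which other transcripts are scaled in RT-qPCR and sequencing. Such genes often serve needs that all cells share, for example protein synthesis and turnover, the cytoskeleton and vesicle transport, and classical plant references such as actin, tubulin, elongation factor and ubiquitin genes come from these classes. A reference gene is only of use if it keeps its level over the samples compared, so its level has to be checked in each new set of tissues. The Nitab4.5 ids of the tables were not paired with names here, so no role is given for a member and the markers of the 3 tissues were not looked up.

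The values of a library summed to between 768375 and 832327 FPKM, and the 10 highest genes of a library held between 1.51% and 7.39% of this sum. The median of this share differed by tissue, with 5.21% in leaf, 3.49% in stalk and 2.80% in root. Read depth is unknown, because the tables hold no counts. In a check of the labels with genes that set the materials apart in the remaining tissues, 49 of the 54 libraries matched the material of their label best and 5 matched another one. These were Leaf VxG88 2, Stalk VxG88 1, Stalk GDH88 1, Root Basma 1 and Root GDH88 2. Without them, the same rule chose 178 of the same 200 genes. The matches were not equally clear. Stalk VxG88 1 had a correlation of -0.258 with its own label and 0.803 with HxB, but Stalk GDH88 1 had 0.113 and 0.246 with Basma. Stalk Basma 1 counted as a match and was kept, at 0.256 beside 0.801 in Stalk Basma 2 and 0.812 in Stalk Basma 3. No source states whether the replicates came from separate plots, so p-values measure the spread between these libraries.

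The 200 genes had mean levels from 20.1 to 237 FPKM, with a median of 35.4. Of these, 47 lay at 50 FPKM or more and 7 at 100 or more, while 1448 of the 8583 genes considered were at 100 or more. Their CV ran from 11.96% to 17.66% (median 16.4%), against a median of 54.4% over all genes considered. The highest library of a member was 1.64 to 2.65 times its lowest (median 2.07), and this ratio was under 2 for 77 members. None of them was at 0 in any library.

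**Figure D1:**
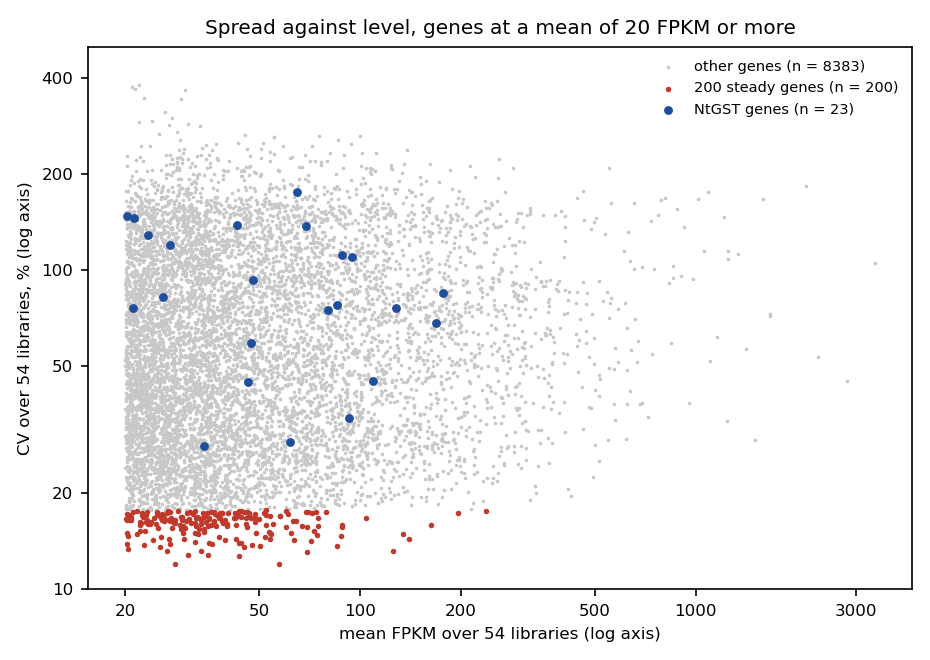
CV in percent against mean FPKM over 54 libraries, both on log axes, for every gene at a mean of 20 FPKM or more; each point is a gene. The 200 steady genes form the lower edge of the cloud, below 17.66%, and the lowest of the 23 NtGST genes lies at 28.0%.

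At the edge of the list, the last gene taken was Nitab4.5_0000782g0190 with a CV of 17.657%, and the first gene not taken was Nitab4.5_0023856g0010 with 17.668%. The level limit cut as finely. Nitab4.5_0006316g0020 was taken at a mean of 20.08 FPKM and a CV of 16.6%, and Nitab4.5_0002485g0080 was not taken at 19.98 FPKM and a CV of 15.3%. Below the level limit, 205 further genes had a CV within the range of the members.

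Nitab4.5_0005702g0020 had the lowest CV of the 200 genes. Its lowest, median and highest values were 22.11, 26.12 and 32.99 FPKM in leaf, 22.48, 29.49 and 36.27 in stalk, and 23.41, 28.35 and 33.76 in root. The 3 ranges overlapped nearly in full, and the mean over all libraries was 28.0 ± 3.35 FPKM (SD, n = 54 libraries), a CV of 11.96%. Both of its extremes lay in libraries that were extreme for many members, the lowest in Leaf Va116 3 and the highest in Stalk GDH88 1.

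Nitab4.5_0000135g0010 came next, at 57.3 ± 6.88 FPKM (SD, n = 54) and a CV of 12.01%. It ran from 45.34 to 67.94 FPKM in leaf, from 45.77 to 65.32 in stalk and from 48.75 to 80.51 in root, with medians of 55.09, 56.78 and 58.05. The value of 80.51 was that of Root Basma 2. Nitab4.5_0000071g0160 was at 43.4 ± 5.51 FPKM, with medians of 42.41 in root, 44.18 in stalk and 43.12 in leaf.

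Nitab4.5_0000032g0530 had nearly the same mean in each tissue, with 35.7 ± 5.16 FPKM in root, 34.7 ± 4.67 in stalk and 35.4 ± 3.86 in leaf (SD, n = 18 libraries each). Nitab4.5_0012555g0020 was the highest of the 10 steadiest genes, at 123.1 ± 18.5 FPKM in root, 126 ± 10.7 in stalk and 126 ± 19.5 in leaf. Here the lowest value, 89.01 in Leaf Hongda 2, and the highest, 168.85 in Leaf HxB 2, both came from leaf. Tissue took up 0.861% and 0.853% of the sum of squares of these genes on the log2 scale.

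Some of the 10 steadiest genes still had a tissue order. Nitab4.5_0005593g0020 was at 28.4 ± 3.21 FPKM in root, 30.7 ± 3.62 in stalk and 33.2 ± 3.48 in leaf, and root was under leaf in 6 of 6 materials. Nitab4.5_0002994g0010 went the other way, with 74.3 ± 6.41 FPKM in root, 68.9 ± 9.88 in stalk and 65.1 ± 8.52 in leaf, and root was above leaf in 6 of 6 materials. The other 3 were Nitab4.5_0009977g0010 at 33.5 ± 4.41, Nitab4.5_0007004g0040 at 26.6 ± 3.51 and Nitab4.5_0000783g0090 at 20.3 ± 2.71 FPKM (SD, n = 54 libraries).

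**Figure D2:**
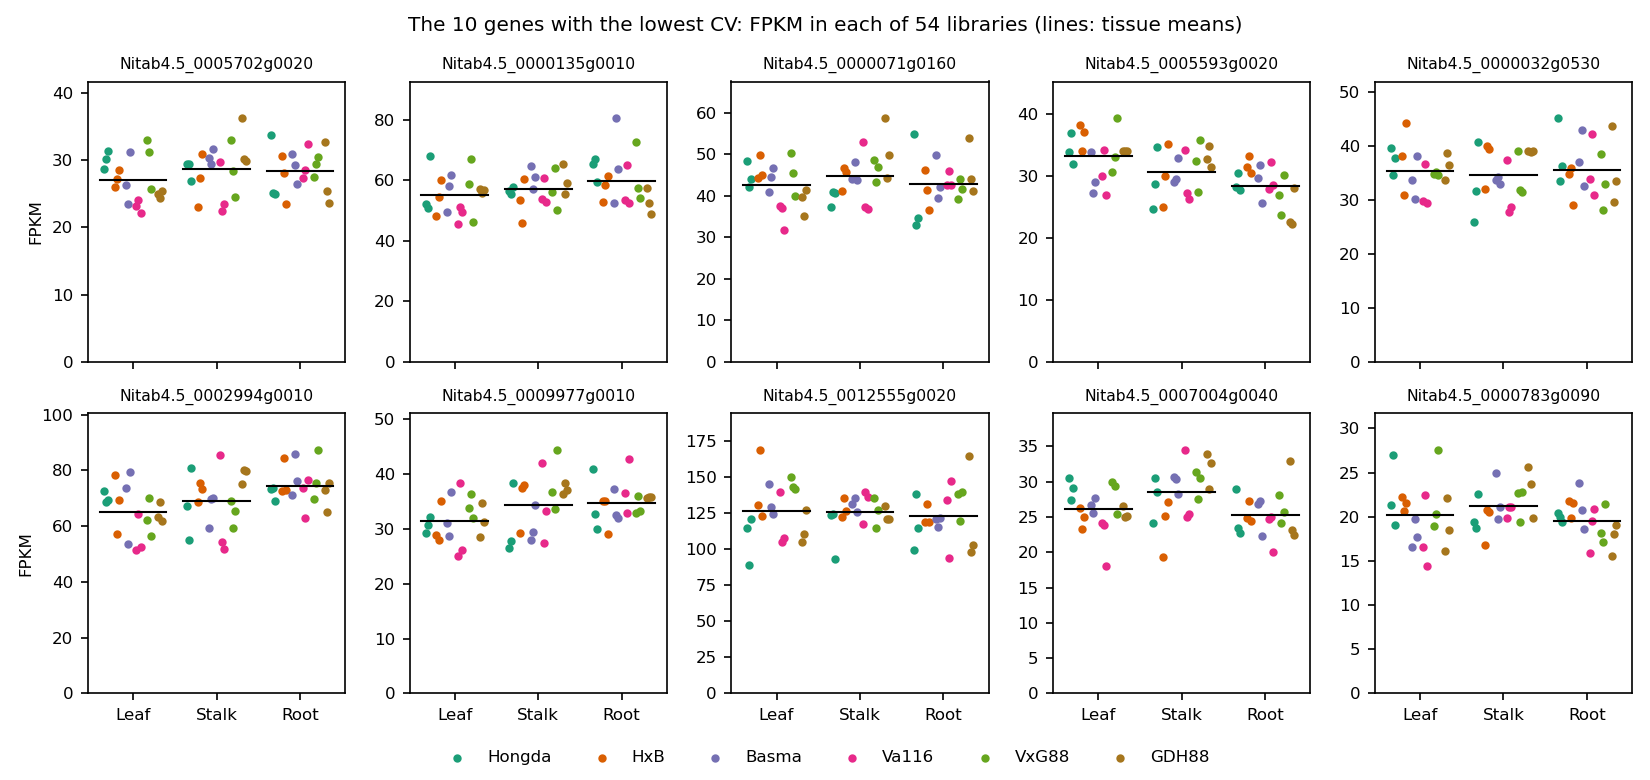
FPKM of the 10 genes with the lowest CV in each of 54 libraries, grouped by tissue, with a point per library coloured by material and a line at the mean of 18 libraries. The leaf, stalk and root clouds of each gene overlap, and Nitab4.5_0005593g0020 steps down from 33.2 FPKM in leaf to 28.4 in root.

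The highest levels were those of Nitab4.5_0000083g0160 at 237 ± 41.5 FPKM, Nitab4.5_0002229g0160 at 196 ± 34.0 and Nitab4.5_0002342g0080 at 163 ± 25.8 (SD, n = 54). Nitab4.5_0000083g0160 ran from 168 FPKM in Root HxB 3 to 343.82 in Stalk Va116 1. Its median was 238 in stalk, 230 in leaf and 222 in root. The lowest levels were those of Nitab4.5_0006316g0020 at 20.1 ± 3.33, Nitab4.5_0000695g0040 at 20.2 ± 3.46 and Nitab4.5_0001192g0040 at 20.2 ± 3.34. FPKM depends on the gene length the authors used, so these levels compare FPKM and not molecules.

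The ids of the members carry 198 different scaffold numbers, and 2 of these numbers hold 2 members each. One such pair, Nitab4.5_0005471g0020 and Nitab4.5_0005471g0030, has adjoining gene numbers, and the other is Nitab4.5_0002778g0040 with Nitab4.5_0002778g0090. The 8583 genes considered carry 4833 different scaffold numbers, so a list with few shared numbers is not read as a trait of the members. Positions of the scaffolds were not available, so whether the members lie apart in the genome was not tested. Tobacco holds close copies of many genes, and no source used here says how reads that fit several copies were divided, so the level of a member with a near-identical copy is uncertain.

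The tissue differences left in the list were small in size. The highest tissue mean was 1.004 to 1.42 times the lowest (median 1.17) and under 1.1 for 41 members, while the median over the genes considered was 2.31. Stalk held the highest mean for 104 members, leaf for 60 and root for 36. The lowest mean was in root for 87, in leaf for 84 and in stalk for 29. These orders hold for the values as deposited and are not read as a trait of the list. Over the 42820 genes tested below, the median log2 difference was -0.13 in root against stalk and 0.05 in stalk against leaf. The direction of the members' calls also turned with the scaling, as described below. Of the sum of squares on the log2 scale, tissue took a median of 18.7%, materials within tissues 24.0% and replicates 56.3%. Over the 7967 genes considered that had no 0, these medians were 51.8%, 10.9% and 34.8%. By these medians the largest share was that of replicates for the members and that of tissue for the genes considered. The shares rest on unequal numbers of tissues, groups and libraries. They thus do not show whether the libraries of a group differed by more than the tissues did.

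Tissues were compared with limma on log2(FPKM + 1) in a model of tissue plus material, over the 42820 genes that reached 1 FPKM in 3 or more libraries. A gene was called at an adjusted p under 0.05 (Benjamini-Hochberg). The choice of the members used these libraries, so their counts are given beside the share of all genes and nothing is read from them. In root against leaf, 31 of the 200 members were called higher and 45 lower, where 36.4% of all genes were called higher and 37% lower. In stalk against leaf, 66 members were called higher and 25 lower, beside 37.2% and 31.3% of all genes. In root against stalk, 13 were called higher and 70 lower, beside 26.5% and 40.6%. Without the 5 libraries that matched another material, the counts of members were 33 and 42, 60 and 27, and 13 and 59. Of the 42554 genes tested there, 15163 and 16066, 15832 and 13188, and 10862 and 17364 were called.

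Of the 200 members, 27.5% were called in none of the 3 contrasts, 23.5% in 1, 45.5% in 2 and 3.5% in all 3, beside 8.51%, 6.93%, 51.8% and 32.8% of all genes tested. The median size of the difference was 0.12 on the log2 scale in root against leaf, 0.14 in stalk against leaf and 0.13 in root against stalk. Over all genes tested it was 0.62, 0.55 and 0.49. The median standard error was 0.072 for members and 0.14 for all genes. The median size of the called differences was 0.24 for members in root against leaf and 0.90 for all genes.

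Nitab4.5_0001569g0120 had the largest positive difference between root and leaf. Its lowest, median and highest values were 14.81, 20.14 and 22.33 FPKM in leaf, 18.88, 23.92 and 29.84 in stalk, and 22.95, 25.92 and 30.07 in root. It was the 1 member whose root libraries all lay above its leaf libraries. Over all genes tested, the ranges did not overlap for 16.6% between root and leaf, for 17.6% between stalk and leaf and for 8.17% between root and stalk, and no member had separate ranges in the latter contrasts. The difference was 0.40 on the log2 scale (standard error 0.059). Next was Nitab4.5_0000118g0220, with medians of 40.92 FPKM in root, 32.82 in stalk and 33.23 in leaf. It also had the largest positive difference between root and stalk (0.31 on the log2 scale, standard error 0.062).

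At the other end, Nitab4.5_0006110g0020 ran from 71.87 to 99.27 FPKM in leaf, from 63.58 to 92.67 in stalk and from 43.97 to 81.41 in root, with medians of 81.77, 76.36 and 60.49. Root lay under leaf in 6 of 6 materials, by -0.44 on the log2 scale (standard error 0.071), although the ranges overlapped. For Nitab4.5_0005658g0010 the medians were 25.84, 22.88 and 19.90 FPKM in leaf, stalk and root, and the difference between root and leaf was -0.39.

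Between stalk and leaf, the largest positive difference was that of Nitab4.5_0002609g0010. It was at 22.69, 29.98 and 37.02 FPKM (lowest, median and highest) in leaf, at 36.06, 43.34 and 50.91 in stalk and at 32.95, 37.34 and 42.64 in root. Tissue took up 69.6% of its sum of squares, the highest share in the list, and stalk lay above leaf by 0.50 on the log2 scale (standard error 0.055) in 6 of 6 materials. Nitab4.5_0001094g0120 followed, with medians of 62.9 FPKM in stalk, 46.87 in leaf and 54.76 in root. Lower in stalk than in leaf were Nitab4.5_0008487g0040, with medians of 28.25 and 38.15, and Nitab4.5_0003743g0020, with 16.95 and 23.07.

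Between root and stalk, Nitab4.5_0003770g0040 was the other member with a large positive difference, with medians of 29.19 FPKM in root and 25.05 in stalk. Nitab4.5_0003298g0020 was at 19.79 to 28.13 FPKM in root and at 23.02 to 37.28 in stalk, a difference of -0.41 on the log2 scale (standard error 0.066) with root lower in 6 of 6 materials. Nitab4.5_0003389g0010 had medians of 37.35 FPKM in root and 52.37 in stalk (-0.39).

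Within a tissue, the material means of a member were also set side by side. Each mean rests on few libraries, so the ratios below include the spread between replicates. Whether the materials differed beyond that spread was not tested with these ratios. The highest material mean of a member was a median of 1.21 times the lowest in root, 1.23 times in stalk and 1.26 times in leaf. The largest ratio in leaf was that of Nitab4.5_0001370g0010, with a mean of 36.9 FPKM in Hongda and 23.1 in Va116 (1.60 times). In stalk it was that of Nitab4.5_0000571g0160, with 41.4 in GDH88 and 27.4 in Va116 (1.51 times). In root it was that of Nitab4.5_0011129g0020, with 40.3 in GDH88 and 24.7 in Hongda (1.63 times). Hongda and Va116 in leaf, and GDH88 and Va116 in stalk, were also the materials with the highest and the lowest mean of the library factor described next. In root this went the other way. Hongda, lowest for the gene named, had the highest mean factor there (1.016), and GDH88 had 0.950.

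A few libraries set the extremes of many members. Root Hongda 1 was the highest library for 42 of the 200 members and Stalk GDH88 1 for 17, while Leaf Va116 3 was the lowest for 53 and Leaf Va116 1 for 16. Many members thus moved up or down together in single libraries. To measure this, a library factor was computed as the median, over the 200 genes, of the FPKM divided by the geometric mean of the gene over the 54 libraries. The movement was not particular to the list. From all genes at 1 FPKM or more in every library, the factor was 1.255 in Root Hongda 1, 1.201 in Stalk GDH88 1, 0.819 in Leaf Va116 3 and 0.857 in Leaf Va116 1. Root Hongda 1 also held 37004 genes at 1 FPKM or more, against 31145 in Root Hongda 2 and 32050 in Root Hongda 3. Root HxB 1 and Root Basma 1 held 35845 and 36062.

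The factors ran from 0.810 in Leaf Va116 3 and 0.832 in Leaf Va116 1 to 1.188 in Root Hongda 1 and 1.199 in Stalk GDH88 1. Stalk had a median of 1.04 (0.896 to 1.20), leaf one of 0.996 (0.810 to 1.08) and root one of 0.946 (0.900 to 1.19). The ranges of the 3 tissues overlapped. In the group means, Leaf Va116 was lowest at 0.889 ± 0.118 and Stalk GDH88 highest at 1.14 ± 0.0553 (SD, n = 3 libraries). Factors from the odd and from the even ranks of the list differed by a ratio of at most 1.08 (median 1.015), and those of the 10 steadiest genes and of the other 190 by at most 1.12.

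Each member was then divided by the factor of the other 199 members. The median CV went from 16.38% to 13.98%, and the CV was lower for 183 of the 200. Nitab4.5_0005702g0020 went from 11.96% to 8.51%. A fall is in part built in, since the members share their libraries and were chosen together.

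**Figure D3:**
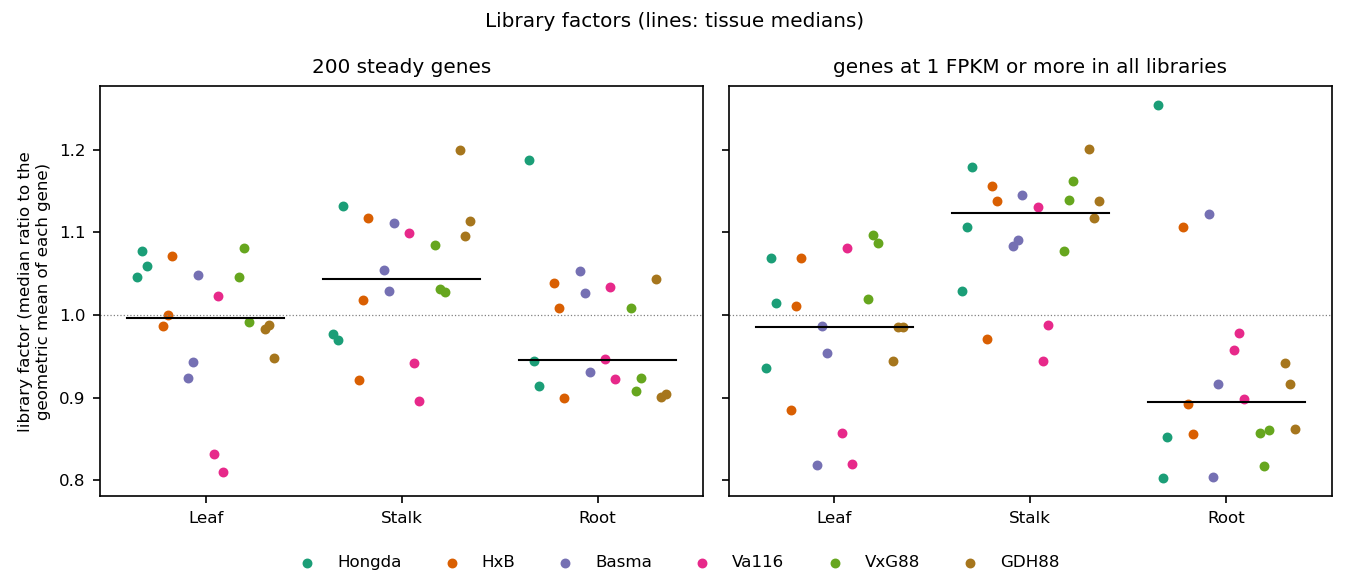
Library factor, the median ratio of the FPKM of a gene to its geometric mean over 54 libraries, from the 200 steady genes (left) and from the 21024 genes at 1 FPKM or more in all libraries (right), with a point per library and a line at the tissue median. The left factors lie between 0.810 and 1.20 and the tissue medians between 0.946 and 1.04, while on the right the medians are 0.895 in root, 1.12 in stalk and 0.986 in leaf.

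A wider reference gave other factors. From the 21024 genes at 1 FPKM or more in all libraries, the factors ran from 0.803 to 1.255, with medians of 0.895 in root, 1.12 in stalk and 0.986 in leaf. They differed from those of the 200 genes by a median ratio of 1.05 and by up to 1.28, in Root Basma 2. The direction of the small tissue differences of the members depended on this choice. As deposited, 13 members were called higher and 70 lower in root against stalk. Scaled by the factor of the 200 genes themselves the counts were 44 and 41, and scaled by the wider reference they were 96 and 3. In stalk against leaf they went from 66 and 25 to 51 and 50 and to 13 and 69, and in root against leaf from 31 and 45 to 47 and 49 and to 62 and 25. Over all genes the calls in stalk against leaf went from 15936 and 13387 to 14916 and 14435 and to 13582 and 15830. In root against stalk they went from 11328 and 17371 to 12498 and 15601 and to 15003 and 12856. In root against leaf they went from 15585 and 15829 to 16019 and 15793 and to 17032 and 15197. Scaling by the 200 genes centres the members on their own median, so near-even counts follow from its construction. As the counts turned with the scaling, no direction is given for the list as a whole.

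For all genes, scaling by the 200 genes left most calls as they were, with the fewest moved in root against leaf and the most in root against stalk. In root against leaf, 31226 genes were called in the same direction before and after, 110 only before and 531 only after. In stalk against leaf these counts were 28267, 993 and 1052, and in root against stalk 26879, 1739 and 1180. No gene was called in opposite directions. The share of higher calls in root against stalk was 39.5% as deposited, 44.5% after scaling by the 200 genes and 53.9% after scaling by the wider reference. The latter moved the median difference of all genes from -0.13 to 0.03 on the log2 scale.

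The 6 NtGST genes whose expression the study profiled show what scaling by the 200 genes does to a contrast. Division by a library factor moves all genes well above 1 FPKM by nearly the same amount in a contrast. The shifts below thus follow from the factors and do not test the 200 genes as references. The enzymes of this family couple glutathione to toxic or foreign molecules. NtGSTZ1, a Zeta class gene, went from 0.82 to 0.92 on the log2 scale in root against stalk (standard errors 0.079 and 0.076). NtGSTT2, a Theta class gene, went from -0.72 to -0.62, and NtDHAR3, a dehydroascorbate reductase that regenerates ascorbate, from 0.66 to 0.75. In stalk against leaf NtGSTF4, a Phi class gene, went from 0.74 to 0.67. Of the 18 contrasts of the 6 genes, 16 were called with both scalings, and the same 2 were called with neither, NtDHAR3 in root against leaf (adjusted p = 0.454 and 0.365, limma) and NtGSTU40 in stalk against leaf (0.529 and 0.66, limma). The contrasts of NtGSTL1 are among the 16, although its mean was 0.695 FPKM and that in root 0.0122. Its size there rests on the pseudocount, with -1.23 in root against leaf at 1 and -3.72 at 0.1.

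None of the 23 NtGST genes at 20 FPKM or more came near the steady list. The steadiest were NtGSTZ4, with a CV of 28.0% and tissue means of 41.1, 26.9 and 34.8 FPKM in leaf, stalk and root, and NtGSTZ1, with 28.8% and 63.4, 43.7 and 77.9. In the order of CV they took places 1621 and 1735. The dehydroascorbate reductase gene NtDHAR1 followed with 34.5%.

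Whether steadiness carries over to other libraries was tested by leaving out libraries. The rule was applied to the 45 libraries of 5 materials, and the 200 genes so chosen were looked at in the 9 libraries of the left-out material. If HxB and VxG88 are crosses as their labels read, a left-out material has a parent or a hybrid among the other 5. It is then not an unrelated genotype. The median CV in the left-out libraries was 17.8% for Hongda, 15.0% for HxB, 15.7% for Basma, 17.7% for Va116, 15.8% for VxG88 and 17.3% for GDH88. Over all genes considered the medians lay between 50.4% and 56.8%. In 5 materials all 200 genes, and in GDH88 198 of them, lay under that median. The 6 lists held between 162 and 185 of the 200 members. The median ratio of the level in the left-out libraries to that in the others lay between 0.932 for Va116 and 1.05 for Hongda, and over all genes considered it was 0.955 and 0.999 there. The ratio lay outside 0.8 to 1.25 for 3 of the 200 genes in GDH88, 2 in Va116 and 0 in the other 4 materials, beside 14.02% of all genes considered in Basma to 29.2% in Hongda.

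In these 9 libraries the 3 tissues were compared with the F test of limma, adjusted over all genes of the fit. In Hongda 0 of the 200 genes were called (2 at an unadjusted p under 0.05), where 34.9% of all genes tested and 40.9% of those at 20 FPKM or more were called. In HxB 0 were called (1 unadjusted), beside 46% of all genes and 50% of those at 20 FPKM. In Basma 1 was called (47.3% and 54.1%) and in Va116 also 1 (37.3% and 39.9%). In VxG88 7 were called, which is 3.5% of the list beside 55.9% and 53.6%. In GDH88 22 were called, 11% beside 56.7% and 60.4%. A count of 0 does not show equal levels.

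**Figure D4:**
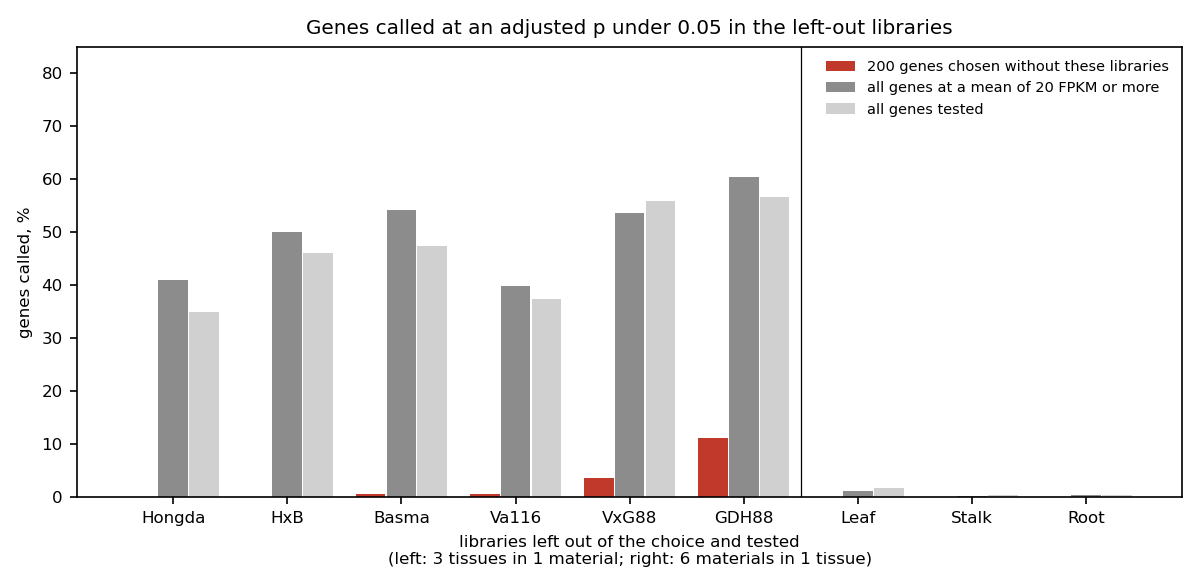
Percent of genes called at an adjusted p under 0.05 in libraries that took no part in the choice, for the 200 genes chosen in the other libraries (red), all genes at a mean of 20 FPKM or more there (dark grey) and all genes tested (light grey). Between tissues of 1 material the red bars reach 11% in GDH88 and the grey bars 34.9% to 60.4%, and between materials of 1 tissue all bars are under 2%.

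The calls in GDH88 had a common direction. Of its 22 genes, 21 had their highest mean in stalk, and 15 had their lowest mean in root and 7 in leaf. The ratio of these means ran from 1.39 to 1.91 (median 1.62). The factors of the 200 members lay the same way in GDH88, with a mean of 1.14 in stalk, 0.950 in root and 0.973 in leaf. The members were chosen with these libraries and include 13 of the 22 genes, so the 2 observations are not separate. Under quantile normalization 5 genes were called (2.5%, beside 53.8% of all genes), and the cause was not tested. Without Stalk GDH88 1 and Root GDH88 2, which matched other materials, 3 of the 200 were called (1.5%, beside 44.6% of all genes). Without column 1, 2 or 3, the share was 1%, 0% and 0%, in fits with fewer libraries, where 40.9%, 33.3% and 23.9% of all genes were called.

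In VxG88, 7 of 7 called genes had their lowest mean in root and 5 had their highest in leaf. Without Leaf VxG88 2 and Stalk VxG88 1, which matched other materials, 0 of the 200 were called by limma (1 at an unadjusted p under 0.05), beside 39.8% of all genes. Without column 1, 2 or 3, the share was 2.5%, 0% and 0%. In these fits with fewer libraries, 34.5%, 38.6% and 21.5% of all genes were called. A single gene was called in more than 1 material, Nitab4.5_0002609g0010, the member described above with the largest difference between stalk and leaf. Its means in stalk and leaf were 46.5 and 28.7 FPKM in Basma, 44.7 and 26.2 in Va116, and 43.4 and 27.7 in GDH88, with adjusted p-values of 0.0488, 0.0471 and 0.0323 from limma. When any 1 of the 3 columns was left out, 0 genes of the list were called in Basma and in Va116. These fits had fewer libraries and called fewer of all genes. Without column 1, 2 or 3 the share of all genes was 35.8%, 24% and 21.1% in Basma. In Va116 it was 22.4%, 23.6% and 13.6%, so the lost calls are not read as steadiness.

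Level and spread did not carry over for every gene. Nitab4.5_0006636g0030, singled out after its values had been seen, was among the 200 steadiest genes of the 45 libraries of the other 5 materials, where it lay between 19.58 and 39.22 FPKM with a CV of 14.8%. In GDH88 it was at 35.51, 4.81 and 4.05 FPKM in stalk, at 3.39, 21.09 and 4.51 in root and at 10.68, 10.39 and 7.86 in leaf. The 7 low libraries were all under the lowest of the other 45. The other 2, Stalk GDH88 1 and Root GDH88 2, lay within their range, and these are the GDH88 libraries that matched another material. The gene was itself among the genes of that check in all 3 tissues, so the 2 observations are not separate. Its mean in GDH88 was 0.389 times that in the other materials, the 1 ratio under 0.5 or over 2 among the 6 lists of 200.

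**Figure D5:**
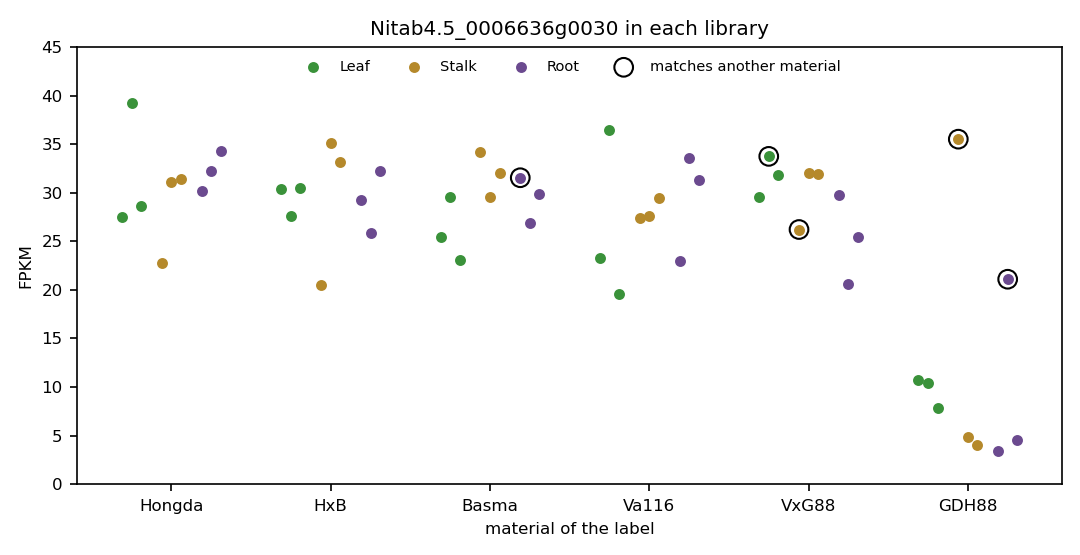
FPKM of Nitab4.5_0006636g0030 in each of 54 libraries by the material of the label, coloured by tissue, with rings around the 5 libraries that matched another material. The libraries of the other 5 materials lie between 19.58 and 39.22 FPKM, and those of GDH88 lie between 3.39 and 10.68 apart from the ringed Stalk GDH88 1 at 35.51 and Root GDH88 2 at 21.09.

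A smaller shift of this kind was seen in Va116, also picked out after the values had been seen. Nitab4.5_0000132g0170 had a mean of 44.7 FPKM in the other 5 materials and was at 24.67, 42.03 and 31.6 in Va116 leaf, at 34.21, 36.01 and 27.93 in its root and at 30.05, 27.19 and 29.22 in its stalk. Its mean there, 31.4 FPKM, was 0.704 times that of the others, and it was among the genes of the label check in 2 tissues. The median ratio of the list in Va116 was 0.932, so part of this shift was common to the list.

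Steadiness between 2 tissues carried over to the third less closely in level. The rule was applied to the 36 libraries of 2 tissues, and these lists held 104 of the 200 members without leaf, 97 without stalk and 96 without root. Within the left-out tissue, the list had a median CV of 15.5% for leaf, 14.4% for stalk and 18.8% for root, where all genes considered had 31.6%, 32.4% and 35.0%. Of the 200 genes, 196, 199 and 191 lay under that median. The ratio of the mean in the left-out tissue to that in the other 2 ran from 0.465 to 2.68 for leaf, from 0.604 to 2.06 for stalk and from 0.454 to 1.65 for root. It lay outside 0.8 to 1.25 for 81 genes in leaf (40.5%), 86 in stalk (43%) and 75 in root (37.5%), beside 74.5%, 66.6% and 71.4% of all genes considered. It lay under 0.5 or over 2 for 3, 1 and 1 genes, beside 38.4%, 32.7% and 34.4%. The median ratio was 0.895, 1.20 and 0.874, and over all genes considered it was 0.677, 0.931 and 0.822.

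Some genes that were steady over a pair of tissues had another level in the third. Nitab4.5_0011381g0010 was at 32.8 FPKM over stalk and root with a CV of 14.6%, and at 67.86, 87.76 and 113.09 (lowest, median and highest) in leaf. Nitab4.5_0006500g0020 was at 69.8 over stalk and root and at 21.37, 32.17 and 42.34 in leaf. Nitab4.5_0001033g0060 was at 32.8 over leaf and root with a CV of 10.8% and at 50.13, 65.54 and 93.95 in stalk. Nitab4.5_0001916g0030 was at 39.9 over leaf and stalk and at 9.08, 19.08 and 40.12 in root. These 4 were the extreme ratios of their lists and none is among the 200 members.

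Within a left-out tissue, the 6 materials were compared in its 18 libraries. By limma 0 of the 200 genes were called in any of the 3 tissues, with 6 in leaf and 1 each in stalk and root at an unadjusted p under 0.05. Of all genes, 1.6% were called in the fit of leaf, 0.403% in that of stalk and 0.307% in that of root, so a count of 0 is near the background and says little about the list. Without the libraries that matched another material the counts stayed at 0, with 4, 0 and 0 at an unadjusted p under 0.05.

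As a panel, the 10 steadiest genes of each list were averaged on the log2 scale in the left-out libraries. The highest library was 1.12 times the lowest in VxG88, 1.21 times in Basma, 1.29 times in HxB, 1.34 times in Hongda, 1.42 times in GDH88 and 1.58 times in Va116. In the left-out tissues it was 1.33 times in stalk, 1.60 times in root and 1.66 times in leaf. For the steadiest gene alone the ratio ran from 1.34 in HxB to 2.46 in root. The panel ratio was under that of the single gene in all left-out sets apart from Va116, where the gene had 1.47.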

How the data were processed

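Values were used as the authors deposited them, in FPKM to 2 decimals, in 1 table per tissue with 18 columns each. HISAT2, StringTie and RSEM are named in the submitters' notes; their versions and the build are not stated in any source used here. The unit rests on a legend of the study, and the even sums could also be those of TPM. Columns were assigned to groups by name, and their numbers are not tied to single samples. Of 124687 ratios of low values between 1.5 and 3.5, 20.4% lay within 0.1 of a whole number (20% in an even spread), so no reads were recovered and depth is unknown; the interval of a single value cannot be given.

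The members and lists were chosen with earlier results of these data known. The genes named are the 10 members with the lowest CV, the 3 highest and 3 lowest in mean, the 2 largest differences of either sign in each contrast, the member with the largest material ratio in each tissue, the genes at the limits, 6 NtGST genes and the steadiest NtGST genes; others are said to have been picked later. The extreme ratios of the left-out lists belong to these.

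Contrasts were fitted with limma (3.58.1, run under R 4.3.3) on values transformed as log2(FPKM + 1), a scale that understates changes of low genes, with a variance trend and after keeping genes with 1 FPKM in 3 libraries. The p-values were two-sided for contrasts, from F tests for left-out libraries, and adjusted by Benjamini-Hochberg over all genes of the fit. Tables and figures were made with Python 3.11.15, numpy 2.4.6, pandas 2.3.3 and matplotlib 3.10.9. The fits and the rule were tested on simulated data. Alternatives were other spreads, limits, scalings, a pseudocount of 0.1, filters, a block for column numbers, and left-out libraries.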

Additional observations from a re-analysis of the deposited data

Results flagged for a closer look

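In each material, the factor of the 200 genes and the genes with the extreme ratios or CV in the left-out libraries were looked through for a library far from the other 8. Of 23 groups of 9 libraries, 3 had such a library. Most of these groups are genes picked for an extreme value in the same libraries, which favours a library set apart, so the number is not read against chance. Nitab4.5_0000999g0070, from the list chosen without GDH88, was at 187.02 FPKM in Root GDH88 2 and between 42.97 and 73.29 in the other 8 libraries of GDH88, and that library matched another material. Nitab4.5_0002709g0010, from the list chosen without Va116, was at 92.78 FPKM in Stalk Va116 1 and between 35.01 and 63.5 in the others. Nitab4.5_0003454g0010, from the list chosen without Hongda, was at 42.79 FPKM in Leaf Hongda 2 and between 15.11 and 27.63 in the others. None of the 3 genes is among the 200 members, and the cause was not tested.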

How the results depend on the processing

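Which genes are steadiest depended on the rule. With the CV of the 18 group means 112 of the 200 genes were shared, with the median absolute deviation over the median 115, with a mean of at least 10 FPKM 118, of at least 50 FPKM 47, and with no level limit 103. Without leaf, stalk or root 104, 97 and 96 were shared, and a list of 100 holds 100. The other settings shared between 135 and 188 of 200, the lowest without replicate 1 (135 to 160 over the 3 column numbers), apart from a list of 400, which holds all 200.

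Counts of members called in the tissue contrasts moved most with the scaling. Beside the counts in the report for the own factor (47 higher in root against leaf, 50 lower in stalk against leaf, 44 and 41 in root against stalk) and the wider reference (62 and 25, 13 and 69, 96 and 3), quantile normalization gave 43 higher and 53 lower in stalk against leaf and 30 higher in root against stalk, and the factor of the 10 steadiest genes 45 lower in stalk against leaf. Over all genes, these settings gave 16339 higher and 13556 lower, 12060 higher and 14298 lower, in the same order. Leaving out each column number gave 16 to 37 higher and 25 to 57 lower in root against leaf, 43 to 62 and 7 to 20 in stalk against leaf, and 4 to 16 and 33 to 76 in root against stalk. Over all genes these ranges were 12739 to 15082 and 12838 to 17300 in root against leaf. They were 14268 to 14790 and 11537 to 12919 in stalk against leaf, and 9810 to 10213 and 13547 to 18779 in root against stalk. Requiring 1 FPKM in all libraries left 6850 and 7806, 9093 and 5342, and 3671 and 10143 of all genes higher and lower in the 3 contrasts, from fewer genes tested.

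With the column number as a replicate block, members called were 31 and 46, 65 and 25, and 13 and 74. Of all 42820 genes, 15703 and 15993, 16109 and 13536, and 11487 and 17596 were called. This block is shared by all materials, so a pairing of tissues within a material was not modelled. By the study's methods, the tissues of a replicate may share plants, but no source ties the column numbers to these replicates or to batches. The numbers were not taken as pairs because not every same-numbered pair of a material deviated together. The r was over 0.1 in 15 of 18 pairs of stalk and leaf, 9 of 18 of root and leaf and 7 of 18 of root and stalk. There is a hint of a link in the data: 32 of 54 libraries correlated best with their own number, of 3, in the other tissues of the material, and leaf libraries of different materials had a mean r of 0.32 with the same number and -0.16 with different numbers. The share of the left-out list called under the block was 0% in Basma and in Va116, 1.5% in VxG88 and 4% in GDH88. Of all genes, 44.8%, 41%, 55.2% and 51.8% were called there.

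For the left-out tests, quantile normalization gave 0.5% in Hongda and in HxB, 1.5% in Basma and in VxG88, 1% in Va116 and 2.5% in GDH88. The share of all genes called there ran from 39.4% in Va116 to 53.8% in GDH88. A mean of at least 50 FPKM gave 2% in HxB, 1.5% in Basma and 7% in GDH88, and lists of 400 gave 0.75% in HxB, 0.25% in Va116 and 12.75% in GDH88. Lists of 100 gave 1% in Basma and 0% in Va116. For these lists the share of all genes called was that of the main fits. Without the variance trend 0% were called in Basma and 1% in Va116, without the filter 1.5% in Va116, 6% in VxG88 and 15% in GDH88, and with a pseudocount of 0.1 1% in Va116 and 13% in GDH88. In the same order, the shares of all genes were 47.2% and 37.4%, then 28.7%, 44.6% and 44.7%, then 37.8% and 57.1%. Leaving out each column number gave 0% in Basma and in Va116, 0% to 2.5% in VxG88 and 0% to 1% in GDH88. These fits had fewer libraries. They called 21.1% to 35.8% of all genes in Basma, 13.6% to 23.6% in Va116, 21.5% to 38.6% in VxG88 and 23.9% to 40.9% in GDH88. Without the libraries that matched another material, a setting chosen after seeing the data, the shares were 0% in VxG88 and 1.5% in GDH88. Of all genes, 39.8% and 44.6% were called there. The left-out tests among materials called 0% in all settings run. Of the NtGST contrasts, root against leaf of NtGSTT2 lost its call in 4 fits (quantile normalization, without column 1, without column 3 and without the 4 libraries with extreme factors) and that of NtGSTZ1 in 1 (quantile normalization), and no contrast that was called changed its sign. Leaving out the 4 libraries with extreme factors, also chosen after seeing the data, kept 167 of 200 members. Depth is unknown, so its limits could not be given.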
